A study of Rattus norvegicus with 10 samples.

Results

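The endoplasmic reticulum (ER) chaperones described here are 10 genes whose products fold, oxidise or dispose of secretory and membrane proteins: Hspa5, Sdf2l1, Dnajb9, Hsp90b1, Pdia3, Pdia4, Pdia6, Calr, Canx and Herpud1. They were taken by name, as every probe set that the platform annotation gives to exactly 1 symbol on that list. The rule itself uses no measured value, but the list was drawn up with earlier results of these data known. This gave 13 probe sets for 10 genes, out of 11894 probe sets and 7727 genes tested, and all 13 were brighter than the filter on dim probe sets. The tissue was liver of CRL:WI (Han) rats aged 6 to 8 weeks, with 1 Affymetrix array per animal. The 5 rats of the RG3487 group were gavaged with that compound at 180 mg/kg, and the 5 rats of the vehicle group with deionized water, in both cases 5 ml/kg. RG3487 is known as a ligand of the nicotinic acetylcholine receptor encoded by Chrna7. The samples are labelled 24 h after dosing, whereas the series text gives 2 h. The rats were housed in groups of 5. The sample labels do not say which rats shared a cage, so cage and treatment may not be separable.

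Secretory proteins enter the ER unfolded. The Hsp70 chaperone BiP, encoded by Hspa5, binds exposed hydrophobic stretches in cycles that its J-domain partners and nucleotide exchange factors set. Protein disulphide isomerases make and rearrange disulphide bonds, while calnexin and calreticulin hold glycoproteins through their sugar chains until these are folded, and terminally misfolded chains are sent back to the cytosol for degradation. When folding falls behind, the unfolded protein response raises transcription of most of these genes through ATF6 and XBP1, which act on promoter motifs called ER stress response elements (ERSE). Hepatocytes, which make most plasma proteins, carry a large amount of this machinery.

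The promoters are shown because these elements are the known link between the unfolded protein response and several of these genes. Both strands of the RefSeq promoters (build GRCr8, 250 bases before to 50 after the start) were searched for ERSE, spelled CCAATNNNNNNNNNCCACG, and for ERSE-II, ATTGG and CCACG with 1 base of any kind between them. A match was found in 22 of 33469 promoters (0.0657%) for ERSE and in 17 (0.0508%) for ERSE-II, and no promoter held both. Of the 10 chaperone genes 8 were in the promoter table, and 5 of those 8 held a match. Capitals mark the matches, on the gene's strand.
Hspa5, chr3:38452948-38453015, + strand: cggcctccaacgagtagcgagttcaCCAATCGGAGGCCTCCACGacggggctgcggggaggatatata
Hsp90b1, chr7:23012322-23012494, - strand: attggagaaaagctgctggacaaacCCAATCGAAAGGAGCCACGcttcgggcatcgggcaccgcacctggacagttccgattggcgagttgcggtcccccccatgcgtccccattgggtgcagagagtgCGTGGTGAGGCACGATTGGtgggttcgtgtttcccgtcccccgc
Canx, chr10:35158044-35158107, - strand: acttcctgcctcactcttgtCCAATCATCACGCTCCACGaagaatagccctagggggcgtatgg
Calr, chr19:40213117-40213178, + strand: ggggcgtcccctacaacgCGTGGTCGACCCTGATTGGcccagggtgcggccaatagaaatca
Herpud1, chr19:10614796-10614856, - strand: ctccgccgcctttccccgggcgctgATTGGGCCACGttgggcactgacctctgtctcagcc

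The ERSE of Hspa5 lay at positions -43 to -25 from the start. Hsp90b1 held 2, at -176 to -158 and, on the other strand, at -72 to -54. That of Canx lay at -230 to -212, and that of Calr, also on the other strand, at -232 to -214. The ERSE-II of Herpud1 lay at -124 to -114. These letters were not in the windows of Sdf2l1, Dnajb9 and Pdia4. Pdia3 and Pdia6 were not in the promoter table.

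RG3487 livers were set against vehicle livers to ask which chaperone transcripts went with the treatment. Among the chaperone genes Sdf2l1 and the isomerase genes Pdia6 and Pdia4 fell, by 34.0%, 26.7% and 18.6% of the mean signal. Hspa5, Hsp90b1, Calr, Dnajb9, Herpud1 and the brightest probe sets of Pdia3 and Canx did not pass the test. By probe set, 4 of 13 were lower in RG3487 livers and 0 were higher at a limma adjusted p under 0.05, where 7.16% of all probe sets were lower and 20.5% were higher. The exact rank-sum test at the same threshold gave 3 lower and 0 higher, where 533 of all 11894 probe sets were lower and 1654 higher. These 3 are the probe sets in which every RG3487 liver lay below every vehicle liver, as in 4.48% of all probe sets. Only groups wholly apart passed the rank-sum test, so this is the same count and not a second result. Among genes, 2 of 10 were lower and apart in this way, against 4.78% of all genes. By gene, with the brightest probe set of each, 3 of 10 were lower and 0 higher, where 7.4% of all genes were lower and 22.3% higher. The count of 4 became 6 without RG3487 rat 1 or without vehicle rat 3, and 2 without RG3487 rat 4, vehicle rat 1 or vehicle rat 2. The count by gene ran from 2 to 5 over the 10 arrays left out. In those fits 682 to 887 of all 11894 probe sets were lower.

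**Figure D1:**
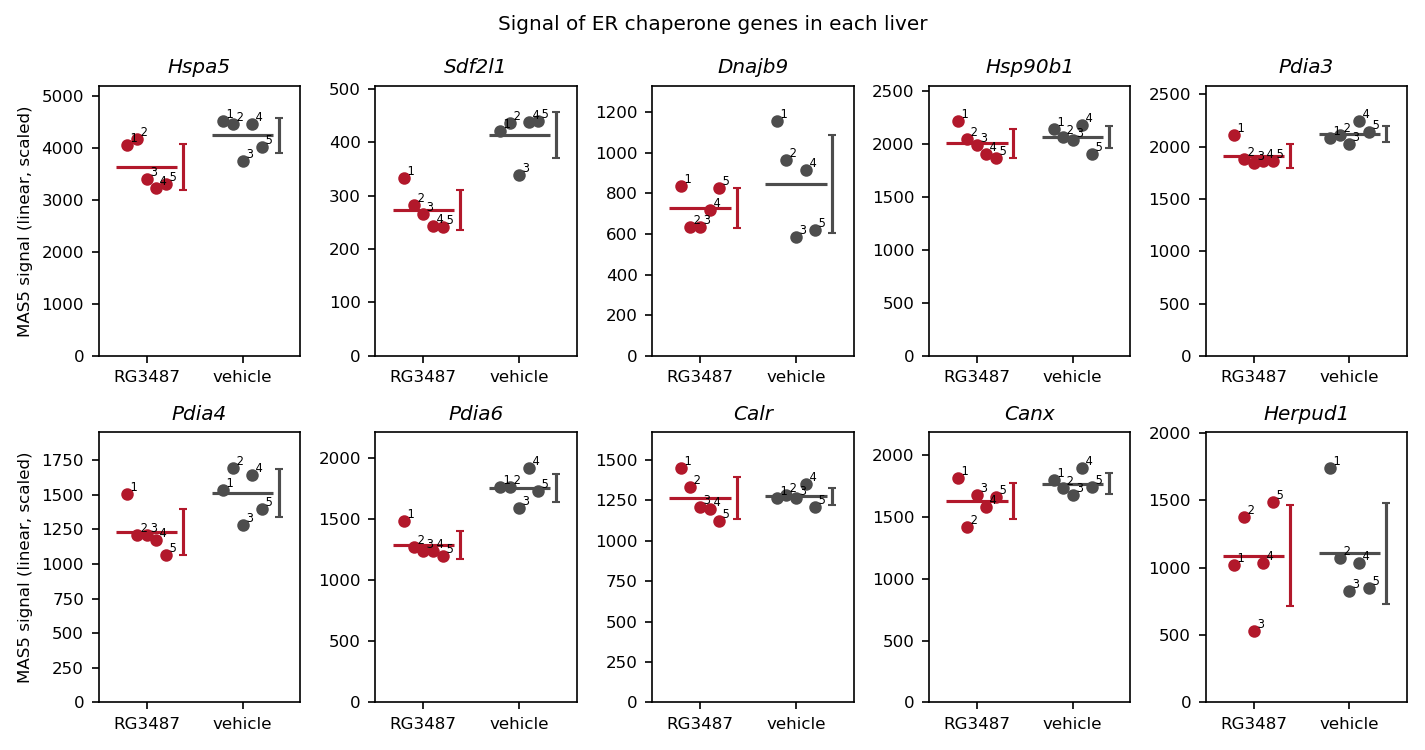
Deposited signal (linear scale, scaled per array) of the brightest probe set of each of the 10 chaperone genes in RG3487 (red) and vehicle (grey) livers. Points are animals with their numbers, horizontal lines are means and the bars beside them are SD (n = 5 per group). The groups are apart for Sdf2l1 and Pdia6 and overlap for the other 8.

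BiP is the only Hsp70 of the ER lumen among these genes. Hspa5 (1370283_at) had signals of 4068, 4177, 3411, 3241 and 3302 in RG3487 rats 1 to 5, against 4519, 4465, 3751, 4456 and 4032 in vehicle rats 1 to 5. Of the RG3487 rats 3 lay below every vehicle rat, while rats 1 and 2 lay within the vehicle range. The log2 difference was -0.23 ± 0.08 (SE, n = 5 per group) with a 95% interval of -0.41 to -0.05, and limma's adjusted p of 0.0603 did not pass. Without RG3487 rat 1, RG3487 rat 2 or vehicle rat 3 it passed, with adjusted p of 0.0397, 0.0295 and 0.0353.

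Sdf2l1 encodes a resident of the ER lumen that works with BiP and its J-domain partners to keep misfolded proteins from aggregating. Its probe set 1373043_at had signals of 333, 283, 266, 243 and 241 in RG3487 livers, against 421, 435, 338, 437 and 439 in vehicle livers. All 5 RG3487 livers lay below all 5 vehicle livers, with RG3487 rat 1 and vehicle rat 3 nearest to each other. The mean was 273 ± 38 in RG3487 livers and 414 ± 43 in vehicle livers (SD, n = 5 each), and the log2 difference of -0.58 ± 0.10 passed (limma adjusted p = 0.0016). It also passed under each of 21 alternative settings.

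Dnajb9 encodes a J-domain partner of BiP that is itself a target of the unfolded protein response. Its signals (1387116_at) were 836, 636, 635, 716 and 827 in RG3487 livers, against 1155, 962, 583, 915 and 618 in vehicle livers. The spread among vehicle rats was 1.98-fold from lowest to highest and covered every RG3487 value. The log2 difference of -0.17 ± 0.17 had a 95% interval of -0.54 to 0.20 (limma adjusted p = 0.481), an interval that holds changes of either sign. Within animals the log2 change of Sdf2l1 minus that of Hspa5 was -0.35 ± 0.06 (SE, n = 5 per group): the difference of their log2 signals was -3.81 to -3.55 in RG3487 livers and -3.41 to -3.15 in vehicle livers, with no overlap. Pairs of members are given as description, with no test, since they were chosen after their values were seen. Scaling an array by 1 factor leaves such a value as it is, apart from the pseudocount. Quantile normalization does not: it gave log2 differences of -0.67 for Sdf2l1 and -0.12 for Hspa5.

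Hsp90b1 encodes endoplasmin, the Hsp90 of the ER, which completes the folding of a restricted set of clients. Its signals (1388331_at) were 2218, 2050, 1991, 1911 and 1869 in RG3487 livers, against 2142, 2067, 2039, 2180 and 1908 in vehicle livers. Both the highest and the lowest of the 10 values came from RG3487 livers. The log2 difference was -0.04 ± 0.06 (95% interval -0.17 to 0.08, limma adjusted p = 0.612), an interval that leaves out a fall as large as that of Pdia6 or Sdf2l1. With arrays scaled to the spiked-in hybridization controls it was 0.15 and passed as higher (adjusted p = 0.0462).

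Disulphide isomerases are encoded by 3 of the genes. Pdia6 (1370859_at), whose product associates with BiP, had signals of 1488, 1272, 1243, 1237 and 1198 in RG3487 livers, against 1768, 1764, 1592, 1922 and 1733 in vehicle livers. The groups did not overlap, and RG3487 rat 1 stood above the other 4 of its group. The mean was 1288 ± 115 in RG3487 livers and 1756 ± 118 in vehicle livers (SD, n = 5 each), and the log2 difference of -0.44 ± 0.07 passed (limma adjusted p = 0.000862), as it did under each of 21 alternatives.

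Pdia4, a large isomerase with several thioredoxin-like domains, had signals (1370007_at) of 1507, 1207, 1210, 1174 and 1062 in RG3487 livers, against 1538, 1696, 1284, 1646 and 1401 in vehicle livers. RG3487 rat 1 lay inside the vehicle range and the other 4 below it. The log2 difference of -0.30 ± 0.10 passed (limma adjusted p = 0.0398), but in 10 of 21 alternatives it did not. It was lost on leaving out any one of RG3487 rats 2 to 5 or vehicle rats 1, 2 or 4, with adjusted p between 0.0613 and 0.096, and with spike-in scaling (0.38).

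Pdia3 encodes the isomerase that calnexin and calreticulin bring to glycoproteins. Its bright probe set 1398788_at had signals of 2114, 1878, 1846, 1866 and 1861 in RG3487 livers, against 2081, 2113, 2029, 2244 and 2137 in vehicle livers. RG3487 rats 2 to 5 lay close together and below all vehicle rats, while rat 1 lay within the vehicle range. The log2 difference was -0.15 ± 0.05 (95% interval -0.26 to -0.04), and limma's adjusted p of 0.0501 missed the threshold. Without RG3487 rat 1 it was -0.18 (adjusted p = 0.0193), and without vehicle rat 3 -0.16 (adjusted p = 0.0495). The second probe set, 1392920_at, was dim, with a mean of 42.8 ± 9.8 in RG3487 livers and 45.2 ± 4.1 in vehicle livers (SD, n = 5 each), and did not pass (limma adjusted p = 0.677). Within animals the log2 change of Pdia6 minus that of Pdia3 was -0.30 ± 0.03, with groups apart: the difference of their log2 signals was -0.63 to -0.50 in RG3487 livers and -0.35 to -0.22 in vehicle livers. For Pdia6 minus Pdia4 (-0.15 ± 0.06) and Pdia4 minus Pdia3 (-0.15 ± 0.08) the groups overlapped.

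Calreticulin and calnexin are the soluble and the membrane-bound lectin chaperone of the same cycle. Calr (1398750_at) had signals of 1452, 1333, 1210, 1195 and 1122 in RG3487 livers, against 1266, 1282, 1264, 1354 and 1209 in vehicle livers. As for Hsp90b1, RG3487 livers held both the highest and the lowest value. The log2 difference was -0.02 ± 0.07 (95% interval -0.17 to 0.13, limma adjusted p = 0.861).

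Canx was read by 3 probe sets that disagreed. The brightest, 1388442_at, had signals of 1814, 1421, 1674, 1576 and 1662 in RG3487 livers, against 1797, 1737, 1673, 1897 and 1740 in vehicle livers, with a log2 difference of -0.12 ± 0.07 that did not pass (limma adjusted p = 0.186). Probe set 1371686_at differed by 0.00 ± 0.06 (limma adjusted p = 0.989). Probe set 1371687_at had signals of 575, 563, 595, 519 and 602 in RG3487 livers, against 707, 682, 621, 648 and 631 in vehicle livers, with no overlap, and its log2 difference of -0.20 ± 0.06 passed (limma adjusted p = 0.0288). That call was lost without RG3487 rat 2 or 4 or vehicle rat 1 or 2 (adjusted p = 0.0575, 0.0709, 0.0668 and 0.0628). The files do not say which part of the transcript each probe set reads.

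Herpud1 encodes a membrane protein of the complex that retrotranslocates misfolded proteins for degradation. It was the most variable member, with signals (1367741_at) of 1019, 1372, 526, 1036 and 1487 in RG3487 livers, against 1740, 1074, 823, 1033 and 851 in vehicle livers. The lowest value came from RG3487 rat 3 and the highest from vehicle rat 1, a spread of 2.83-fold within RG3487 livers and 2.11-fold within vehicle livers. The log2 difference of -0.05 ± 0.26 has a 95% interval of -0.62 to 0.52 (limma adjusted p = 0.908), wide enough to hold the fall of Sdf2l1 and a rise of similar size.

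**Figure D2:**
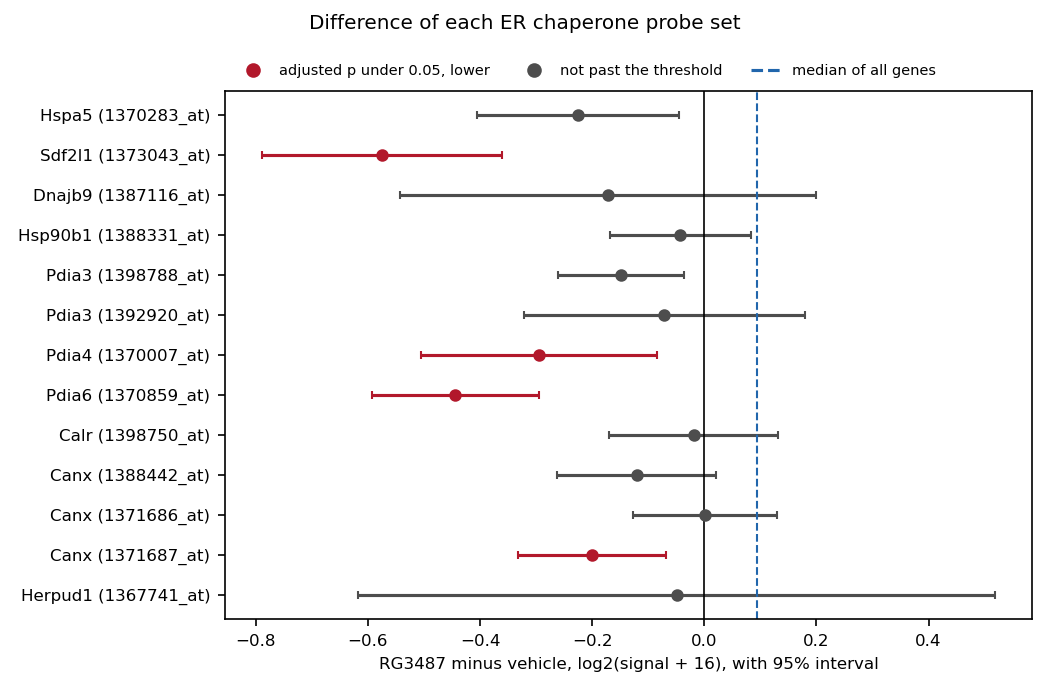
Log2 difference, RG3487 minus vehicle, of log2(signal + 16) for the 13 chaperone probe sets, with 95% intervals from limma (n = 5 per group). Red marks the 4 that passed as lower, the solid line is 0 and the dashed line is the median of all genes at 0.09.

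All 10 chaperone genes had a negative difference, where 33.8% of all genes did. Their median was -0.16, and the median of all 7727 genes was 0.09, a difference of -0.25 on the log2 scale. These are descriptions of a list chosen with results known. In none of the 5 genes with an ERSE or ERSE-II match did the brightest probe set pass. A dimmer probe set of 1 of them, Canx 1371687_at, did pass as lower (-0.20, limma adjusted p = 0.0288). Hspa5, another of them, was near the threshold (limma adjusted p = 0.0603). Of the 3 genes whose brightest probe set passed, Sdf2l1 and Pdia4 had no match in the window and Pdia6 had no promoter entry. The search took exact spellings only, within 250 bases before to 50 after the start. A relation between matches and differences was not tested.

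The animals of a group tended to keep their order across members. RG3487 rat 1 had the highest signal of its group in 8 of 10 genes and the lowest in 0. Among vehicle rats, rat 3 was the lowest in 8 of 10 genes and rat 4 the highest in 5. Relative to the vehicle means, the median log2 difference over the 10 genes was 0.00 in RG3487 rat 1 and -0.31 to -0.18 in RG3487 rats 2 to 5, while it was -0.16 in vehicle rat 3 and -0.07 to 0.08 in the other vehicle rats. RG3487 rat 1 thus lay inside the range of vehicle rats and the other 4 below it.

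The sign of the smaller differences rested on how arrays were scaled. Array means were 330.0 to 332 in all, whereas the median signal was 94.4 ± 1.5 in RG3487 livers and 88.6 ± 2.6 in vehicle livers (SD, n = 5 each; exact permutation p = 0.00794, the smallest this design allows, and 0.0119 adjusted over 3 array measures). The 18 hybridization control probe sets, which read bacterial and phage transcripts added to the sample, averaged 9.71 ± 0.03 in RG3487 livers and 9.90 ± 0.03 in vehicle livers on the log2 scale (exact permutation p = 0.00794, 0.0119 adjusted). Scaling to them moved the median of all genes to 0.29 and that of the chaperone genes to 0.035, with 4 of 10 still negative. Sdf2l1 (-0.38) and Pdia6 (-0.25) passed as lower there too. Median centring and spike-in scaling shift all genes of an array alike, so the chaperone median relative to that of all genes stays at -0.25 by construction. With quantile normalization, which does not, it was -0.18. Median centring gave 7 probe sets lower of 13, among them Hspa5 (-0.32, limma adjusted p = 0.0187) and the bright Pdia3 probe set (-0.24, limma adjusted p = 0.0107). Lower calls rose in general there, to 1454 of all 11894 probe sets, against 852 as deposited.

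**Figure D3:**
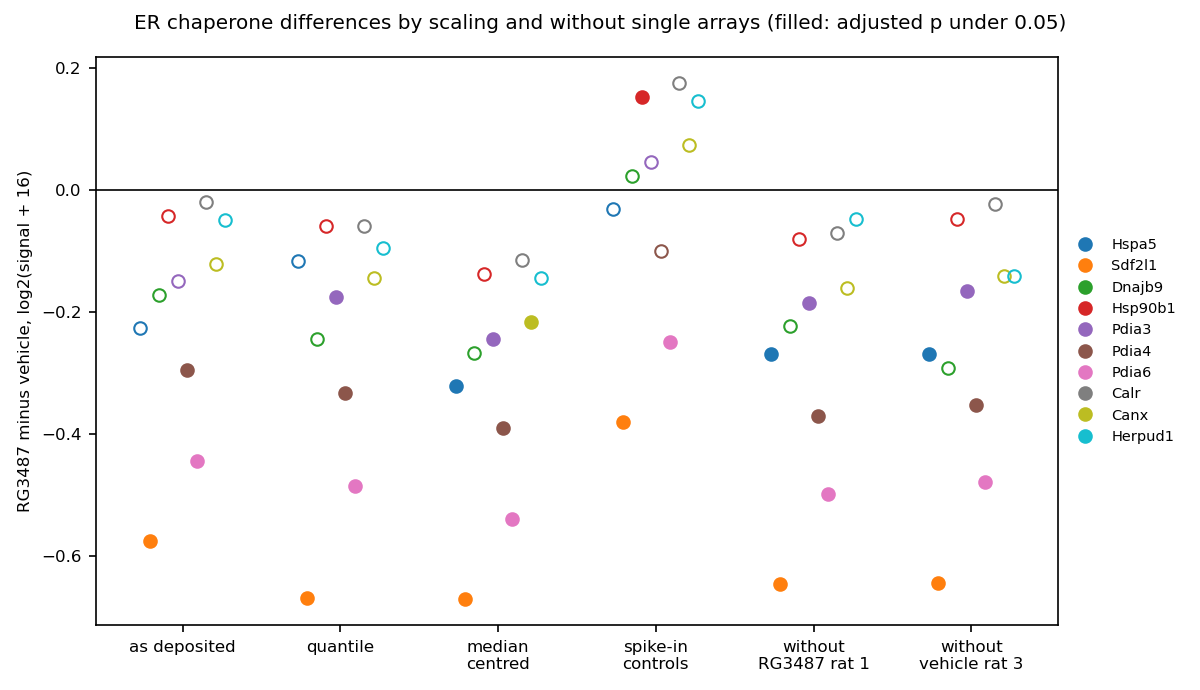
Log2 difference, RG3487 minus vehicle, of each chaperone gene (brightest probe set, one colour each) as deposited, under 3 other scalings of the arrays, and without RG3487 rat 1 or vehicle rat 3. Filled points passed limma's test at an adjusted p under 0.05. Sdf2l1 and Pdia6 are filled in every column, and with spike-in scaling 6 of the 10 genes lie above 0.

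Of 34 measured ER folding enzymes and co-chaperones 6 fell and 4 rose, with a median of -0.01, where 7.4% of all genes were lower and 22.3% higher. The split was 9 lower and 1 higher with median centring and with quantile normalization, and 3 lower and 16 higher with spike-in scaling. P4hb, the founding disulphide isomerase, fell to 2604 ± 152 in RG3487 livers, against 3252 ± 157 in vehicle livers (SD, n = 5 each; log2 difference -0.32 ± 0.05, limma adjusted p = 0.00138), but did not pass with spike-in scaling (0.073). Sil1, the nucleotide exchange factor of BiP, averaged 75.8 ± 11.3 in RG3487 livers and 118 ± 13 in vehicle livers (SD, n = 5 each; -0.55 ± 0.10, limma adjusted p = 0.00232). The calcium-binding protein gene Nucb2 changed by -0.67 ± 0.11, while Mogs, the glucosidase that trims the first glucose from new glycans, rose by 0.33 ± 0.08. Several stress-inducible partners did not pass: Hyou1 (-0.17 ± 0.16), Dnajb11 (0.00 ± 0.08), Creld2 (-0.07 ± 0.10), Manf (-0.11 ± 0.10) and the prolyl isomerase gene Ppib (-0.00 ± 0.06). An ERSE or ERSE-II match was in the promoters of 6 of the 35 genes of this list in the promoter table: Hyou1, Dnajb11, Dnajc3, Ero1b, Creld2 and Nucb1, of which Nucb1 (-0.35) and Ero1b (-0.45, named after its value was seen) passed as lower.

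Of 28 genes of ER-associated degradation, 5 fell and 4 rose, with a median of 0.07, where 7.4% of all genes were lower and 22.3% higher. Sel1l, the scaffold of the main ubiquitin ligase of the ER, averaged 315 ± 21 in RG3487 livers and 446 ± 51 in vehicle livers (SD, n = 5 each; log2 difference -0.48 ± 0.08, limma adjusted p = 0.00171). Edem1, which takes glycoproteins out of the folding cycle, changed by -0.54 ± 0.13 (limma adjusted p = 0.00846), and Rnf5, another ER ubiquitin ligase, by -0.47 ± 0.08. The groups overlapped for Edem1, and its call was lost in the rank-sum test (adjusted p = 0.0647). Erlin1, a membrane scaffold that brings substrates to degradation, rose by 0.42 ± 0.07 and Aup1 by 0.28 ± 0.06. Median centring and quantile normalization each gave 6 lower and 2 higher, and spike-in scaling 3 lower and 18 higher.

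The sensor genes Atf6, Atf6b and Eif2ak3 did not pass, and Ern1, also on this list, was not among the genes measured. Atf6 averaged 268 ± 19 in RG3487 livers and 268 ± 20 in vehicle livers (SD, n = 5 each), with a log2 difference of -0.00 ± 0.07. Eif2ak3, the kinase that slows translation, had a difference of -0.11 ± 0.12, and the transcription factor genes Xbp1 and Atf4 of 0.16 ± 0.14 and -0.01 ± 0.10. The array reads total Xbp1 transcript, and its splicing was not measured. In the list of 17 sensors and effectors 4 fell and 1 rose, where 7.4% of all genes were lower and 22.3% higher. Ddit3, a late effector of sustained stress, averaged 50 ± 3.6 in RG3487 livers and 71.0 ± 6.4 in vehicle livers (SD, n = 5 each, log2 difference -0.40 ± 0.08, limma adjusted p = 0.00351). Chac1, a target of ATF4, changed by -1.04 ± 0.29 with overlapping groups. Both were dim, with mean signals at percentiles 15.95 and 11.95 of the probe sets tested. Chac1 signals were 17 to 60 in RG3487 livers and 49 to 178 in vehicle livers, and its call was lost in the rank-sum test (adjusted p = 0.1). Eif2s1, which encodes the translation factor subunit that Eif2ak3 phosphorylates, rose by 0.52 ± 0.09. Median centring gave 5 lower and 1 higher in this list, quantile normalization 4 and 1, and spike-in scaling 2 and 3.

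Entry into the ER and exit from it were covered by another pair of lists. Of 35 translocation and N-glycosylation genes 3 fell and 8 rose (median 0.08), and of 30 genes of transport to the Golgi 0 fell and 7 rose (median 0.14), where 7.4% of all genes were lower and 22.3% higher. Median centring turned the split of the translocation list to 8 lower and 3 higher, quantile normalization to 6 and 4 and spike-in scaling to 1 and 23, while in the transport list 0 were lower under each. Rpn2, a subunit of the oligosaccharyltransferase, fell to 1319 ± 72 in RG3487 livers, against 2053 ± 103 in vehicle livers (SD, n = 5 each; log2 difference -0.63 ± 0.05, limma adjusted p = 2.9e-05). Among those that rose were the signal peptidase gene Spcs1 (0.36 ± 0.06), the signal recognition particle gene Srp68 (0.45 ± 0.08) and the COPII coat genes Sec24c (0.43 ± 0.08) and Sec13 (0.30 ± 0.06).

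Chaperones outside the ER rose in part. All 8 subunits of the cytosolic chaperonin CCT rose, with a median of 0.56 and a range of 0.36 to 0.72, and 11 of 22 cytosolic and mitochondrial heat shock genes rose and 0 fell (median 0.29), where 22.3% of all genes rose and 7.4% fell. Tcp1, a CCT subunit, averaged 2407 ± 162 in RG3487 livers and 1582 ± 137 in vehicle livers (SD, n = 5 each). The CCT count did not depend on scaling: 8 were higher and 0 lower with median centring, quantile normalization and spike-in scaling alike. The heat shock count did, with 6, 7 and 19 genes higher in these fits and 0 lower. The difference between these lists and the ER chaperones was not tested.

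**Figure D4:**
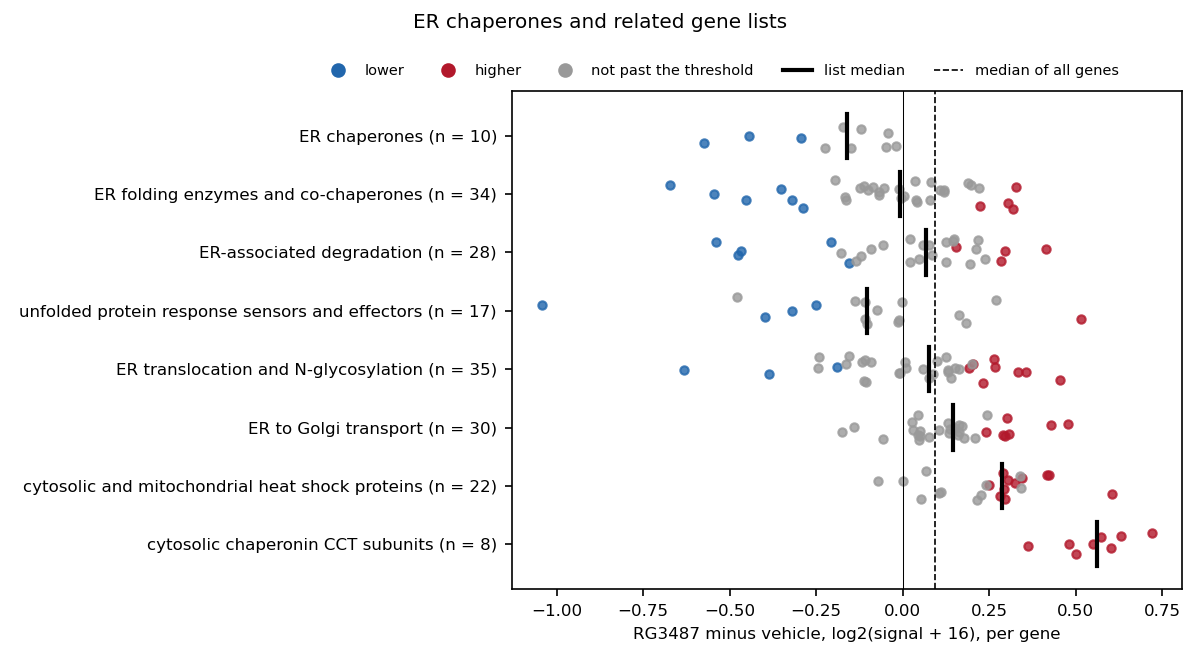
Log2 difference, RG3487 minus vehicle, of each measured gene in the ER chaperone list and 7 related lists, on the log2(signal + 16) scale. Blue points passed as lower, red as higher and grey did not pass limma's test, and thick bars are list medians, which run from -0.16 for the ER chaperones to 0.56 for CCT.

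Among all genes, the 5 whose centred log2 signals over the 10 arrays lay closest to those of Hspa5, by root mean square difference, were Fn1 (0.0686), Zbtb2 (0.0723), Junb (0.075), Apom (0.0819) and Cmtm7 (0.0895). The chaperone gene closest to Hspa5 was Pdia4, at rank 29 of 7726 genes (0.109), followed by Pdia3 at rank 48 and Hsp90b1 at rank 95. Herpud1 was at rank 7190. The distance was not scaled to the spread of each gene, so a variable gene such as Herpud1 lies far by it. It does not measure correlation. Zbtb2, Junb and Cmtm7 were dim, with mean signals at percentiles 11.8, 23.4 and 20.2 of the probe sets tested.

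The tissue label was checked against fixed markers. The counts below stand beside 7.4% of all genes lower and 22.3% higher. The 7 hepatocyte markers with a probe set of their own were all above the filter. Their summed signal was 43796 to 51751 in RG3487 livers and 50931 to 55122 in vehicle livers, with 3 of 7 lower (Apoa1, Cps1 and Serpina1). The summed signal of 6 Kupffer cell markers was 2021 to 2589 in RG3487 livers and 2476 to 3017 in vehicle livers, with 2 of 6 lower. That of 4 endothelial markers was 1813 to 2123 in RG3487 livers and 2168 to 2430 in vehicle livers, with 1 of 4 lower and no overlap. Of all single genes 4.78% were lower with no overlap, and no such share was counted for sums. Plasma cells are rich in ER chaperones. Their 3 markers on the array, of which Tnfrsf17 was below the filter, summed to 542 to 658 in RG3487 livers and 435 to 602 in vehicle livers. These ranges overlapped. Only Sdc1 was higher, and which cells its signal came from was not tested. Stellate cell and fibroblast markers summed to 1682 to 1944 in RG3487 livers and 1542 to 1985 in vehicle livers, with 1 of 7 measured lower and 1 higher. Sums for cholangiocyte, lymphocyte, neutrophil and erythroid markers also overlapped between groups, and none of their measured markers passed. The part of shifts in marker signal in the chaperone result was not tested. In whole liver, fewer cells of a type and less RNA per cell cannot be told apart.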

How the data were processed

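Liver RNA of 10 rats, 5 given RG3487 and 5 given vehicle, was labelled from 1 ug and hybridised to Affymetrix arrays. The deposited intensity per probe set was made with MAS5, per the submitters' processing notes; neither the software version nor the target mean is named there. Intensities are whole numbers on a linear scale. Arrays have no read depth, and their number limits the precision.

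Of 15859 probe sets other than the 40 controls, 12562 had 1 symbol, 332 several and 2965 none. Symbols were updated through Entrez identifier or accession against RefSeq (GRCr8), which changed 1. Signals were analysed as log2(signal + 16), which understates folds of dim genes, after the dimmest 25% had been left out. The groups were compared with limma 3.58.1 in R 4.3.3 (lmFit, eBayes with trend, two-sided, Benjamini-Hochberg over 11894 probe sets, threshold 0.05). A gene was represented by its brightest retained probe set. Array measures had an exact two-sided permutation test.

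Members and gene lists were chosen with earlier results of these data known. Named genes are all members, up to 5 genes a direction with the smallest p in each related list, a fixed set of unfolded protein response genes, and the 5 genes nearest to Hspa5. Alternatives covered the pseudocount, scaling, filter, variance model, array weights, replicate number as a block, a rank-sum test and each array left out. The fit was tested on simulated data with normal noise and few changed probe sets. It recovered 31.4% of 1.25-fold, 77.7% of 1.5-fold and 95.7% of 2-fold changes, and 4.98% of its calls were false. A gene that did not pass may thus still have a small change.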

Additional observations from a re-analysis of the deposited data

Results flagged for a closer look

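Groups of 5 signals were checked for a single value far from the other 4 (Dixon's ratio above its 95% critical value), 146 groups in all, and 10 were found, where chance gives about 1 in 20. Among the chaperones, RG3487 rat 1 stood above its group for Pdia6 (1488) and Pdia3 (2114), vehicle rat 3 stood below its group for Sdf2l1 (338), and vehicle rat 1 stood above its group for Herpud1 (1740). In the related lists the far values were those of Fkbp2 in RG3487 rat 1 (1168, the highest), Ube2j1 in RG3487 rat 2 (158, the lowest), Stt3b in RG3487 rat 2 (1219, the highest), Cnpy2 in vehicle rat 2 (522, the lowest) and Eif2s1 in vehicle rat 5 (379, the lowest). Cmtm7, one of the genes nearest to Hspa5, was highest in RG3487 rat 2 (67).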

How the results depend on the processing

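With each array left out in turn, 2 to 6 chaperone probe sets were lower and 0 higher, the median of the chaperone genes was -0.22 to -0.13, and 2491 to 3453 probe sets passed in all. Lower calls over all probe sets ran from 682 to 887 in these fits. Spike-in scaling gave 7037 calls in all (95% higher), 2 chaperone probe sets lower and 2 higher, and a median of 0.035. It turned 6 of 10 chaperone genes to positive values: Hsp90b1 (0.15, passing as higher) and, without passing, Calr (0.18), Herpud1 (0.15), Canx (0.07), Pdia3 (0.05) and Dnajb9 (0.02). Of the named related genes with a call in either fit, Ppib (0.19), Erlec1 (0.041) and Stt3b (0.00595) turned positive. Genes of the related lists that are not named were not checked one by one for a change of sign. Median centring gave 7 chaperone probe sets lower and 45.1% of 2648 calls higher, and quantile normalization 54.5% of 2622, against 74.1% of 3295 as deposited. Over all probe sets 1454 were lower with median centring and 852 as deposited. The rank-sum test passed 2187 probe sets. The cause was not tested. Titles number the rats of both groups from 1 to 5, but deviations of same-numbered rats correlated at only -0.04 to 0.17, and 2 of 5 correlated best with their own number. With the replicate block 2918 probe sets and 4 chaperone probe sets passed; Hspa5 then passed (adjusted p = 0.0341) and Canx 1371687_at did not (0.0605). Of 46 named related genes with a call, 28 kept it under every alternative.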
